A study of Mus musculus with 6 samples.

Results

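The cytosolic ribosomal protein genes, whose products form the protein part of the cell's ribosomes, were examined in mouse mammary tumors that lacked or carried JAM-A, a tight junction adhesion molecule encoded by F11r. Members were probe sets paired with exactly 1 gene symbol that begins with Rpl or Rps and a digit, or that is Rpsa, Rplp0, Rplp1 or Rplp2. S6 kinase genes and symbols marked as pseudogenes were left out. Each gene was represented by its probe set with the highest mean over the arrays. This gave 63 genes of the 19938 that the arrays measured with a probe set of 1 symbol, 38 for the large subunit and 25 for the small subunit. The small-subunit group holds Rps19bp1, whose symbol fits the rule but whose product is a binding partner of RPS19 and not part of the ribosome. Another 8 genes are relatives of a standard ribosomal protein gene, namely Rpl3l, Rpl7l1, Rpl10l, Rpl32l, Rpl39l, Rps4l, Rps27l and Rps23rg1. The remaining 54 are standard members, 33 of the large and 21 of the small subunit.

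Total RNA of 6 mammary tumors was measured on Affymetrix arrays of the Mouse Gene 1.0 ST type, each tumor on its own array, to compare the gene profiles of tumors without and with JAM-A. The JamA- group held tumors 5333, 5346 and 5347 of MMTV-PyMT JAM-A KO mice, and the JamA+ group held tumors 5369, 5370 and 5393 of MMTV-PyMT mice with JAM-A, for which the methods name JAM-A+/+ littermates. All 6 tumors carried the polyoma middle T oncogene under the MMTV promoter, which drives it mainly in mammary epithelium, and all were taken early in tumor development. The tissue label of tumor 5347 leaves out the lack of JAM-A that its title and genotype state. Whether each tumor came from a different mouse is not stated in the labels, and the p-values therefore cover only the spread between these tumors. An age is not given in the labels.

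A ribosome consists of a large subunit, which joins amino acids, and a small subunit, which reads the mRNA, and the proteins of both are made in matching amounts by genes scattered over the chromosomes. The mRNAs of most of these genes start with a run of pyrimidines, the terminal oligopyrimidine or TOP element, through which mTOR signaling controls their translation. Myc raises the transcription of ribosomal protein genes and of ribosome assembly factors, and ribosome production is known to be high in growing tumors.

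The start sites of 8 members are printed to show the letters where a TOP element would stand, 4 with a long run and 4 named below for their values that have a run of at most 4 letters. The sequences are RefSeq's on GRCm38.p6, on the strand of each gene, with 15 bases before the annotated start and 15 from it on. Capitals mark the longest run of C and T that covers the start or begins within 5 bases of it, where it holds at least 2 letters. Rps3a1 has only the single c at its start, printed in lower case. Rps6 is at chr4:86857353-86857382, minus strand, Rpl38 at chr11:114668565-114668594, plus strand, Rplp2 at chr7:141447636-141447665, plus strand, and Rps10 at chr17:27635230-27635259, minus strand. Rps19bp1 is at chr15:80264292-80264321, minus strand, Rps3a1 at chr3:86142654-86142683, minus strand, the upstream start of Rpl22 at chr4:152324421-152324450, plus strand, and Rps15 at chr10:80292416-80292445, plus strand.
Rps6: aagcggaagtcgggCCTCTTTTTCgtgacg
Rpl38: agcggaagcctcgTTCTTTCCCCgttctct
Rplp2: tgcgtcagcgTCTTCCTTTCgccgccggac
Rps10: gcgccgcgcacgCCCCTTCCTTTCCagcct
Rps19bp1: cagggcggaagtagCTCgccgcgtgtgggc
Rps3a1: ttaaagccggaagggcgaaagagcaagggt
Rpl22: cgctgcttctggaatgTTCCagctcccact
Rps15: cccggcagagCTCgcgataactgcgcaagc

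Start windows of 250 bases before to 50 after the start were given for 51 of the 63 members, 60 windows in all. A run of at least 8 pyrimidines stood at the start in 23.3% of the member windows and in 6.31% of all 32851 windows. The median run was 3.5 letters in member windows and 3.0 in all windows. Runs that neither cover the annotated start nor begin within 5 bases of it were not counted. The starts used in these tumors were not measured, so a short run does not show that a TOP element is lacking. CCGGAAG, read on both strands, a core of sites for ETS family factors, was in 33.3% of the member windows and in 8.86% of all windows. GGGCGG on either strand, the core of Sp1 sites, was in 56.7% and 35.7%, CACGTG, the E box that Myc can bind, in 11.7% and 7.15%, and AAGATGGC on either strand, a YY1 site, in 5.0% and 2.75%. TATAAA within the 40 bases before the start was in 0 of the 60 member windows and in 2.31% of all windows. These are matches of letters and not measured binding, and the motifs could overlap. The shares are of windows and not of genes. Of the members 8 had more than 1 window, and windows of 1 gene can overlap, so that 1 site can count more than once.

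All values are log2 expression values as deposited, made with RMA, a method that summarises the probes of a probe set after normalizing the arrays. Differences are JamA- minus JamA+ on this scale, tested with limma, which fits every probe set and shares their variance estimates, and adjusted p-values are Benjamini-Hochberg values over all 35557 probe sets. F11r, the targeted gene, had log2 values of 5.91, 5.55 and 6.53 in JamA- tumors, against 10.1, 10.23 and 10.47 in JamA+ tumors, a difference of -4.27 (limma, adjusted p = 0.00667), and it was the only gene of 19938 with an adjusted p under 0.05. Array medians lay between 6.23 and 6.34. The mean log2 level of 9 luminal epithelial markers was 10.99 to 11.47 in JamA- and 10.9 to 11.22 in JamA+ tumors, and 8 of the 9 differences were above 0. Fibroblast markers were at 10.08 to 10.6 in JamA- and 9.44 to 10.31 in JamA+ tumors, with 6 of 7 above 0, and endothelial markers at 6.96 to 7.35 in JamA- and 6.55 to 7.08 in JamA+ tumors, with 7 of 7 above 0. Skeletal muscle markers were at 7.39 to 8.37 in JamA- and 6.19 to 7.7 in JamA+ tumors, with 6 of 6 above 0. The differences were above 0 in 7 of 7 basal epithelial, 6 of 6 macrophage and 4 of 4 B cell markers. They were so in 3 of 5 adipocyte and 2 of 6 T cell markers, while 71% of all genes were above 0. The 1 measured red blood cell marker differed by -0.39. B and T cell markers had mean levels of 4.57 to 4.87 and 5.42 to 5.67, below the array medians. After quantile normalization, described below, 4 of 9 luminal, 5 of 7 fibroblast, 7 of 7 endothelial and 6 of 6 muscle markers were above 0. It was then 5 of 7 basal, 3 of 6 macrophage, 4 of 4 B cell, 3 of 5 adipocyte and 3 of 6 T cell markers, beside 66.4% of all genes. In bulk tumor RNA, fewer cells of a type and less RNA per cell cannot be told apart.

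No standard ribosomal protein gene of either subunit met the signature criteria, a fold change of group means of at least 1.3 with an unadjusted limma p under 0.05. The only member that met them was Rps19bp1, higher in JamA- tumors. Over all genes with 1 symbol, 5.33% met the criteria, 4.73% higher and 0.592% lower in JamA- tumors. Of the 38 large-subunit genes, 28 had a log2 fold change above 0 and 10 below it, with a median of 0.11 and a range of -0.32 to 0.31. After quantile normalization, a further step on the deposited values that gives all arrays the same distribution, these counts were 10 and 28. Of the 25 small-subunit genes, 16 were above 0 and 8 below (4 and 21 after quantile normalization), with a median of 0.07 and a range of -0.26 to 0.53. The medians correspond to folds of 1.077 and 1.05, beside a median of 0.09 over all genes, of which 71% were above 0. Both subunit medians turned below 0, to -0.08 and -0.11, with that normalization, while the median over all genes was then 0.07. Without tumor 5333 the members that met the criteria were Rpl8 at 0.42, Rpl10 at 0.41, Rps15 at 0.39 and Rps19bp1, beside 10.8% of all genes, with medians of 0.24 and 0.22. Without tumor 5347 the medians were -0.01 and -0.05, and without tumor 5369 they were 0.04 and 0.005.

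In the large subunit 0 genes had an unadjusted limma p under 0.05, beside 8.16% of all genes, and the equal-variance test of each probe set alone also gave 0. In the small subunit the counts were 1 and 2. No member had an adjusted limma p under 0.05, beside 0.00502% of all genes. The 95% interval of the difference included 0 for 62 of 63 members, and its bounds lay a median of 0.37 from the difference. A 1.3-fold difference is 0.379 on the log2 scale. A 1.3-fold fall lay outside the interval of 46 members and a 1.3-fold rise outside that of 21, and both lay outside for 7.

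**Figure D1:**
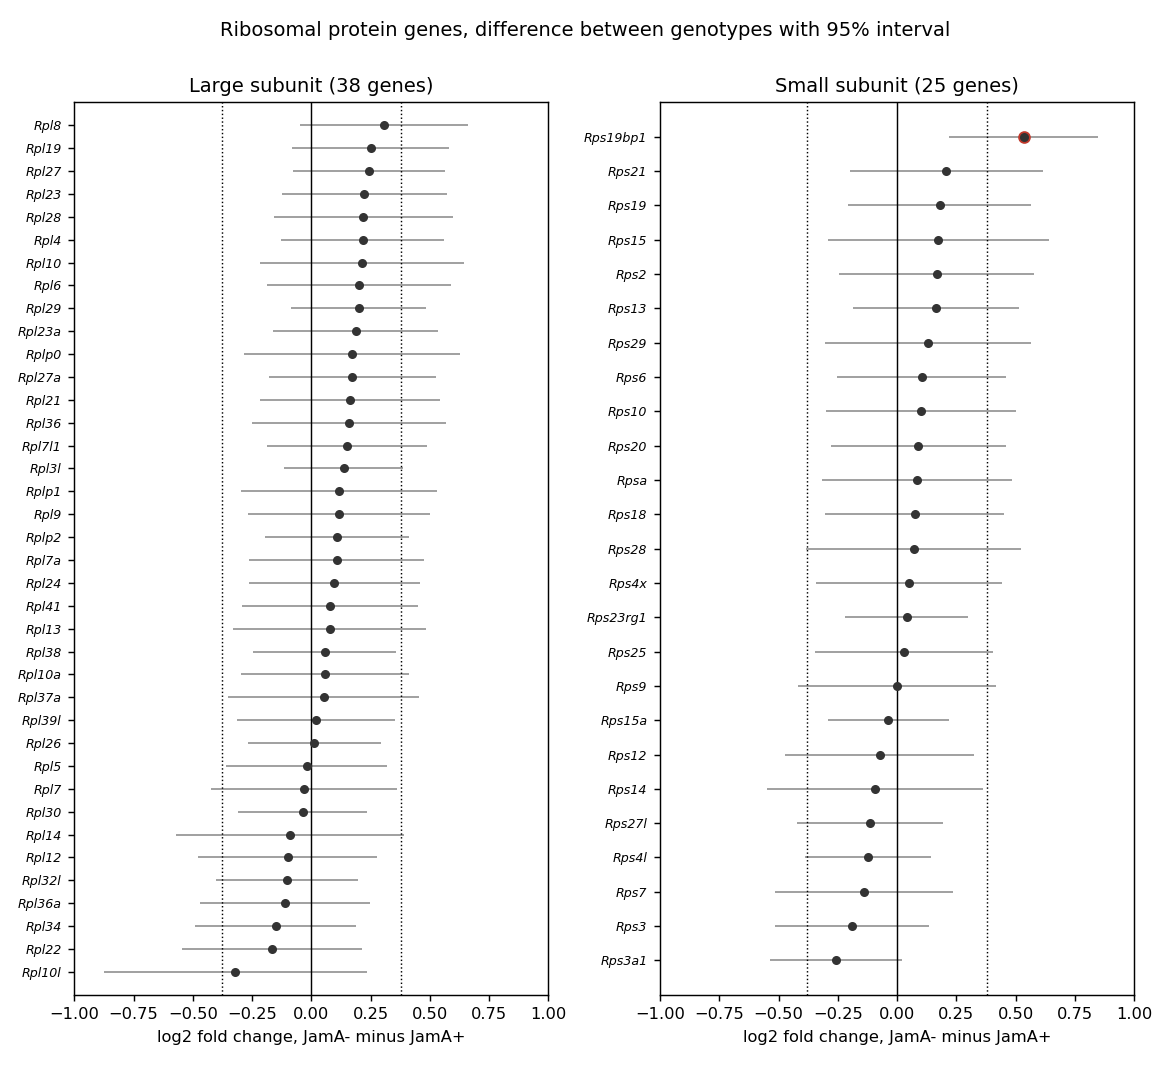
Log2 fold change (JamA- minus JamA+, x axis) of each ribosomal protein gene with its 95% limma interval, large subunit left and small subunit right, dotted lines at a 1.3-fold change. The only gene that met the criteria, Rps19bp1 at 0.53, is ringed in red, and the interval of every other gene crosses 0. The medians of 0.11 and 0.07 are those of the deposited values and fall below 0 after quantile normalization.

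Among the core large-subunit proteins, Rpl8, which lies near the center that joins amino acids, had the highest difference. Its log2 values were 12.48, 12.84 and 12.81 in JamA- tumors, against 12.2, 12.44 and 12.57 in JamA+ tumors. JamA- tumor 5333 lay below JamA+ tumor 5393, so the groups overlapped. The difference was 0.31 (SE 0.153, limma adjusted p = 0.503), and it was 0.11 after quantile normalization. Rpl19, a protein of the bridge between the subunits, had 12.17, 12.45 and 12.61 in JamA- tumors, against 12.06, 12.19 and 12.23 in JamA+ tumors. JamA- tumors 5346 and 5347 were above all JamA+ tumors and 5333 was among them, with a difference of 0.25 (adjusted p = 0.545). Rpl27 and Rpl23, both structural proteins of the large subunit, stood next at 0.24 and 0.22 (adjusted p = 0.541 and 0.598).

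The stalk proteins Rplp0, Rplp1 and Rplp2, which recruit translation factors to the ribosome, had differences of 0.17, 0.12 and 0.11. The only probe set of Rplp2 had a mean level of 6.57, near the array medians, while those of Rplp0 and Rplp1 were at 13.11 and 13.1. Rplp0 had log2 values of 12.82, 13.36 and 13.42 in JamA- tumors, against 12.77, 13.11 and 13.2 in JamA+ tumors. The lowest value of each group was near 12.8 and the groups overlapped (adjusted p = 0.762). Rpl10, which joins the large subunit late in its assembly, had 13.4, 13.92 and 14.06 in JamA- tumors, against 13.43, 13.64 and 13.67 in JamA+ tumors. Here 5333 was the lowest of the 6 tumors and 5347 the highest, with a difference of 0.21 (adjusted p = 0.687).

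Rpl5, which with the 5S rRNA can bind the p53 regulator Mdm2, differed by -0.02. Rpl26, which binds p53 mRNA, differed by 0.01. Rpl38, needed in mice for patterning of the axial skeleton, differed by 0.06, and Rpl41, a very short basic peptide, by 0.08. The 95% intervals of Rpl5, Rpl26 and Rpl38 ran from -0.36 to 0.32, from -0.27 to 0.29 and from -0.24 to 0.36, all inside a 1.3-fold change in both directions.

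At the low end of the standard large-subunit members stood Rpl22, which is needed for T cell development in mice. Its log2 values were 9.87, 10.25 and 10.47 in JamA- tumors, against 10.34, 10.36 and 10.39 in JamA+ tumors. The JamA+ tumors lay within 0.05 of each other (SD 0.025), while the JamA- tumors spread to both sides of them (SD 0.304). The difference was -0.17 (adjusted p = 0.722). After quantile normalization it was -0.38 and met the criteria. Rpl34 and Rpl36a, at mean levels of 7.6 and 11.32, differed by -0.15 and -0.11, and in both tumor 5333 was the lowest of the 6.

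In the small subunit Rps21, Rps19 and Rps15 had the highest differences among ribosomal proteins. Rps15, a protein of the decoding region, had log2 values of 11.6, 12.17 and 12.32 in JamA- tumors, against 11.72, 11.81 and 12.04 in JamA+ tumors. Tumor 5333 was the lowest of all 6, and the difference of 0.17 had an adjusted p of 0.769. Rps19, which is mutated in human Diamond-Blackfan anemia, had 8.83, 8.82 and 9.15 in JamA- tumors, against 8.52, 8.72 and 9.02 in JamA+ tumors, with overlapping groups and a difference of 0.18 (adjusted p = 0.705). Rps21 differed by 0.21 (adjusted p = 0.679).

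Rps6, the substrate of the S6 kinases downstream of mTOR, had 12.92, 13.34 and 13.41 in JamA- tumors, against 13.04, 13.14 and 13.18 in JamA+ tumors. The JamA- tumors enclosed the JamA+ tumors on both sides, and the difference was 0.10 (adjusted p = 0.825). Rpsa, also known as the laminin receptor, differed by 0.08 and Rps4x by 0.05. Rps3, which lines the mRNA entry channel, had 11.42, 11.8 and 11.77 in JamA- tumors, against 11.76, 11.95 and 11.85 in JamA+ tumors. It was lowest in 5333, with a difference of -0.19 (adjusted p = 0.629). Rps7 differed by -0.14. Rps14, whose loss is known from the human 5q- syndrome, differed by -0.09 and had the largest spread among JamA- tumors of all members (SD 0.397, against 0.059 in JamA+ tumors).

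Rps3a1 was the only member whose JamA- tumors all lay below the JamA+ tumors, and Rps19bp1 the only one whose JamA- tumors all lay above them. Over all genes, 15% had groups that did not overlap, 12.4% higher and 2.55% lower in JamA- tumors, and the other 61 members overlapped. Rps3a1, a small-subunit protein that contacts initiation factor 3, had log2 values of 10.03, 10.02 and 10.02 in JamA- tumors, against 10.42, 10.12 and 10.3 in JamA+ tumors. The JamA- tumors were almost equal (SD 0.006, the smallest among JamA- tumors of any member), and the difference was -0.26 (95% interval -0.54 to 0.02, adjusted p = 0.482). It was -0.45 after quantile normalization and then met the criteria. The neighbours of its only probe set are genes of chromosome 13, while Rps3a1 itself lies on chromosome 3.

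Rps19bp1, which is also known as a regulator of the deacetylase SIRT1, had log2 values of 9.59, 9.88 and 9.83 in JamA- tumors, against 9.07, 9.28 and 9.35 in JamA+ tumors. The JamA- tumors averaged 9.77 ± 0.155 and the JamA+ tumors 9.23 ± 0.146 (SD, n = 3 each), and every JamA- tumor was above every JamA+ tumor. The difference of 0.53 (SE 0.135, 95% interval 0.22 to 0.85) had an unadjusted limma p of 0.00464 and an adjusted p of 0.297. It was 0.36 after quantile normalization and then just short of the fold threshold. Without Rps19bp1 the median of the small subunit was 0.06, with 0 of 24 genes meeting the criteria.

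**Figure D2:**
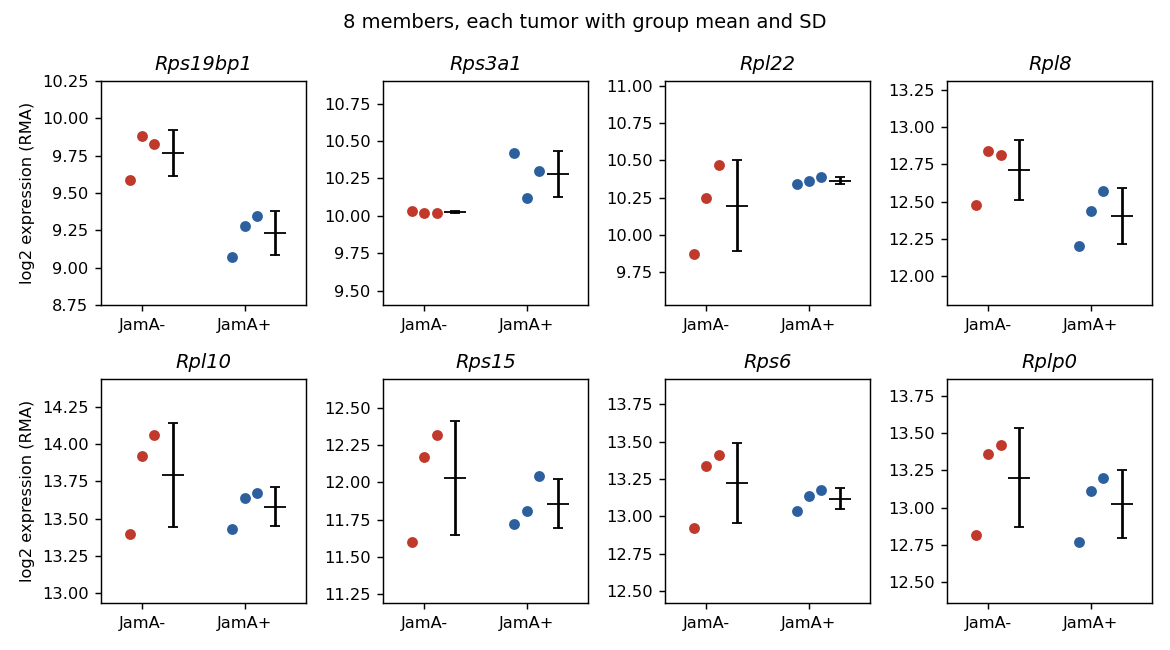
Log2 expression of 8 members in each tumor (points; JamA- left in red, JamA+ right in blue, in order of tumor number) with the group mean and SD (bars), on axes of equal span. Only Rps19bp1, at 9.59 to 9.88 in JamA- and 9.07 to 9.35 in JamA+ tumors, and Rps3a1, at 10.02 to 10.03 and 10.12 to 10.42, have groups that do not overlap.

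The relatives of the standard genes gave no common direction. Rpl10l, a retrogene copy that takes the place of Rpl10 in male meiosis in mice, had the lowest difference of all members. Its log2 values were 5.46, 5.19 and 5.9 in JamA- tumors, against 6.21, 5.46 and 5.84 in JamA+ tumors. The groups overlapped, the spread was the widest among JamA+ tumors of any member (SD 0.375), and the difference was -0.32 (adjusted p = 0.632), while that of Rpl10 was 0.21. Rpl3l, a muscle form of Rpl3, differed by 0.14, Rpl7l1 by 0.15 beside -0.03 for Rpl7, and Rpl39l by 0.02. The mean levels of Rpl10l, Rpl3l and Rpl39l were 5.68, 4.84 and 4.17, all below the array medians. Rps4l differed by -0.12 beside 0.05 for Rps4x, and Rps27l, a p53-induced relative of Rps27, by -0.11. None of these pairs was tested against each other. Their partners Rpl3, Rpl39 and Rps27 were in probe sets of several symbols only.

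Most members varied between the tumors of a genotype in the same way. Each log2 value was set against that gene's mean over the 6 tumors. The median deviation of the large-subunit genes was -0.18, 0.10 and 0.26 in JamA- tumors 5333, 5346 and 5347, against -0.16, -0.04 and 0.01 in JamA+ tumors 5369, 5370 and 5393. That of the small-subunit genes was -0.28, 0.09 and 0.255 in the JamA- tumors, against -0.13, 0.01 and 0.04 in the JamA+ tumors. Tumor 5333 was the lowest and 5347 the highest JamA- tumor in both subunits, and 5369 the lowest JamA+ tumor.

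Tumor 5347 was the highest of the 6 tumors in 45 of 63 members, while over all genes it was so in 42.2%. Among the 96 other genes with a mean log2 level of at least 12 it was the highest in 72. Tumor 5333 was the lowest in 35 of 63 members, beside 18.8% of all genes and 33 of these 96 bright genes. The SD was larger among JamA- than among JamA+ tumors in 53 of 63 members, with medians of 0.251 and 0.111. Over the 6 tumors the median Pearson correlation between 2 members was 0.674, and among the 44 standard members with a mean log2 level of at least 10 it was 0.873, with 95.8% of the pairs above 0. These correlations are descriptions over 6 points that share their arrays.

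**Figure D3:**
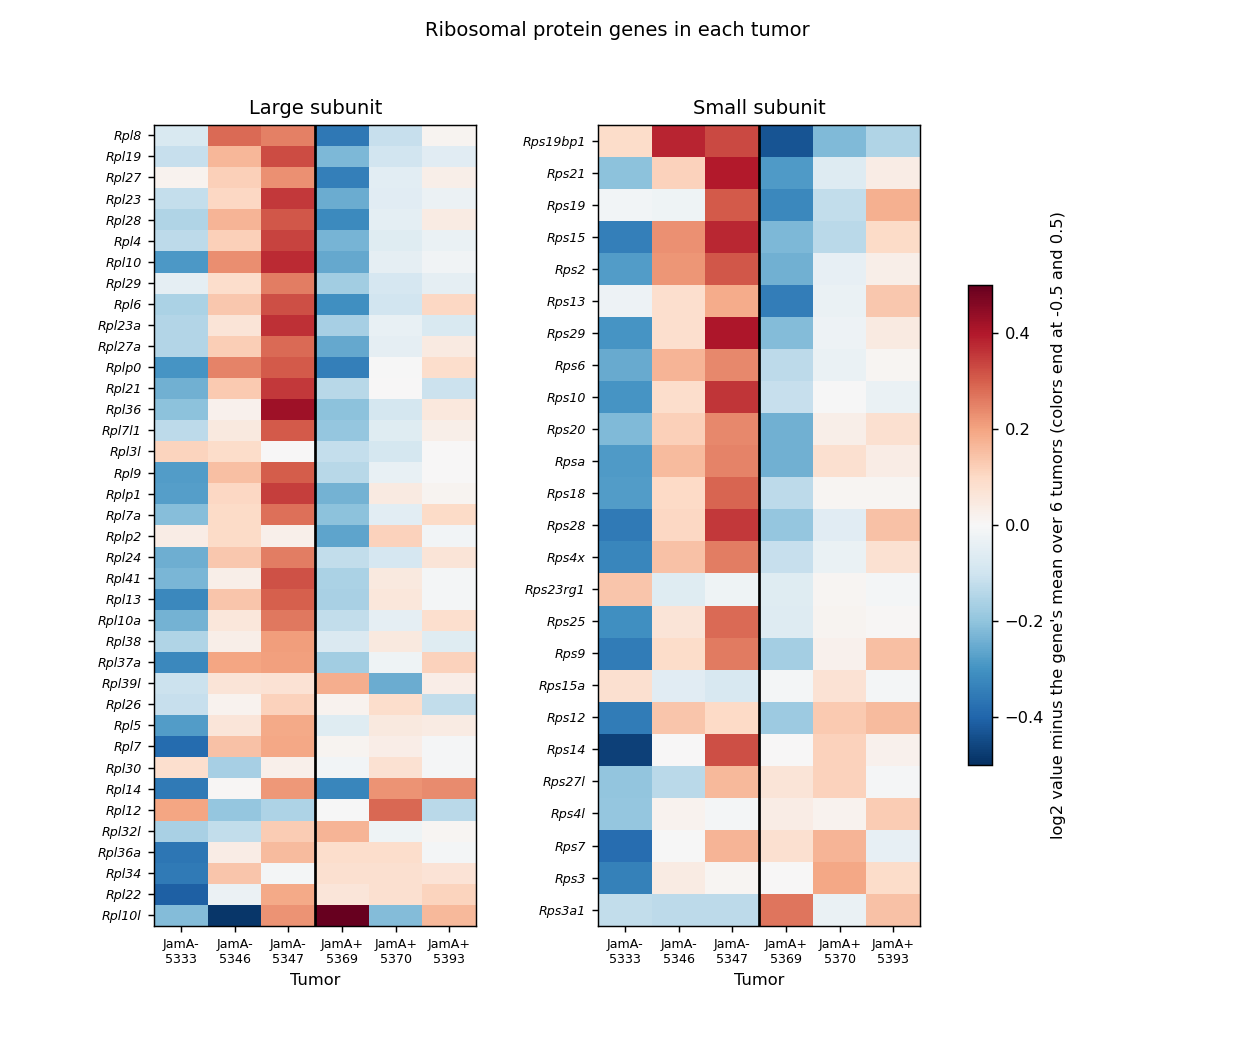
Log2 value minus the gene's mean over the 6 tumors (color, red above and blue below) for each member, in columns for JamA- tumors 5333, 5346 and 5347 and JamA+ tumors 5369, 5370 and 5393, rows ordered by log2 fold change. The columns of 5333 and 5369 are mostly blue and that of 5347 mostly red, with medians over all members of -0.22 in 5333, 0.255 in 5347 and -0.16 in 5369.

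The width of the arrays' value distributions and other bright genes moved with this pattern. The interquartile range of all log2 values was 3.41, 3.61 and 3.74 in JamA- tumors 5333, 5346 and 5347, against 3.27, 3.5 and 3.53 in JamA+ tumors 5369, 5370 and 5393. Within each group the tumor with the narrowest array was also the one with the lowest members. Across the groups this order did not hold. The array of 5369 was narrower than that of 5333, but the median deviation over all members was -0.16 in 5369 and -0.22 in 5333. The 96 other genes with a mean log2 level of at least 12 had median deviations of -0.18, 0.20 and 0.34 in the JamA- tumors, against -0.27, -0.07 and -0.02 in the JamA+ tumors. Once the arrays were quantile normalized, the median deviations of the large-subunit genes were -0.06, -0.05 and 0.00 in the JamA- tumors, against 0.06, 0.01 and 0.03 in the JamA+ tumors. Those of the small-subunit genes were -0.13, -0.04 and -0.015 in the JamA- tumors, against 0.045, 0.03 and 0.06 in the JamA+ tumors. The part of the array width in the members' values was not tested otherwise. Marker genes of some cell types moved in a similar way, and those of others did not. The luminal epithelial markers deviated by a mean of -0.20 and 0.28 in JamA- tumors 5333 and 5347, against -0.29 in JamA+ tumor 5369, the macrophage markers by -0.33 and 0.35, against -0.45, and the adipocyte markers by -0.58 and 0.46, against -1.20. For the adipocyte markers JamA+ tumors 5370 and 5393 were as high as 5347, at 0.47 and 0.60. Fibroblast markers were at -0.05 and 0.47 in 5333 and 5347, against -0.69 in 5369, and basal epithelial markers at 0.12 and -0.04, against -0.30. Skeletal muscle markers were highest in 5346 (0.96) and lowest in 5393 (-1.23). T cell markers were highest in 5370 (0.16) and lowest in 5346 (-0.10). The part of these markers in the members' values was not tested.

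The differences of the ribosomal protein genes were also set beside those of other genes of the same level, without a test. Among members with a mean of at least 12 the median difference was 0.12 over 25 genes, 0.17 for 18 large-subunit and 0.08 for 7 small-subunit genes, while it was 0.25 over the 96 other genes, of which 11 met the criteria upward, and 48 did so without tumor 5333. Between 10 and 12 it was 0.06 over 18 members and 0.23 over 1192 other genes. Between 8 and 10 it was -0.01 over 10 members and 0.15 over 5376 other genes. The 6 small-subunit genes of this band had a median of 0.17. Below 8 it was -0.04 over 8 members and 0.06 over 13213 other genes. After quantile normalization 14 of 63 members were above 0 and 49 below, with 0 meeting the criteria higher and 2, Rpl22 and Rps3a1, lower in JamA- tumors, while 66.4% of all genes were above 0. In the deposited values 944 genes were called higher and 118 lower, and with this normalization 570 and 174. When the quantile normalization was run over the listed probe sets alone, the counts were 359 and 303, 50.5% of all genes and 15 of 63 members were above 0, and the medians were 0.00 over all genes and -0.09 over the members. No test of the members as a set was made.

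**Figure D4:**
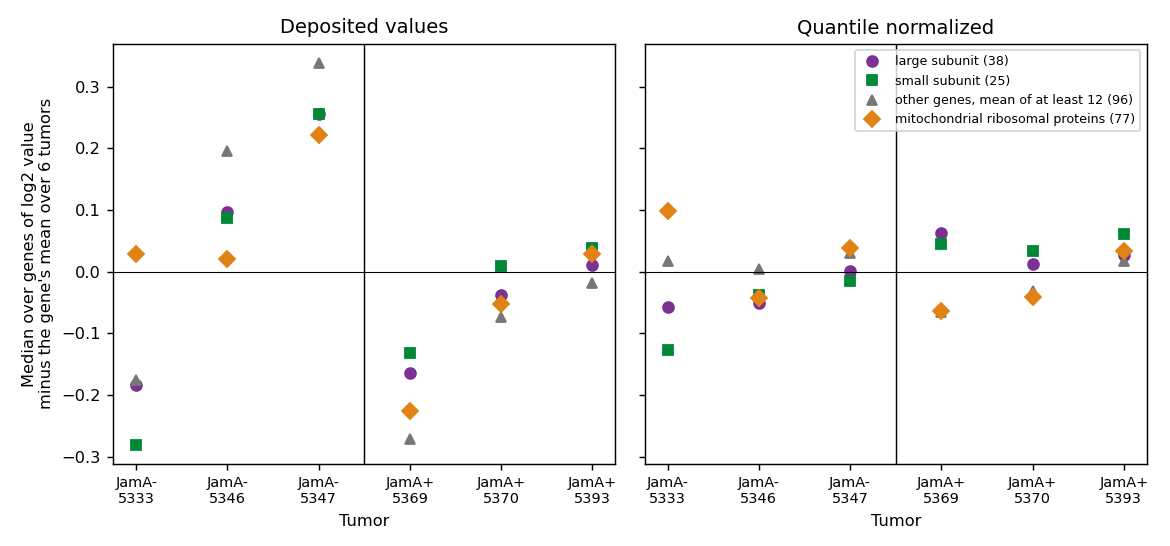
Median log2 deviation of genes from their own 6-tumor mean (y axis) in each tumor for large-subunit, small-subunit, other bright and mitochondrial ribosomal protein genes, deposited values left and quantile normalized values right. On the left the subunits lie at -0.18 and -0.28 in JamA- tumor 5333 and at 0.26 in 5347. On the right the spread of both subunits is smaller, and their JamA- tumors lie below their JamA+ tumors.

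Most ribosomal protein genes have processed copies elsewhere in the mouse genome whose sequence is close to that of the gene, and the arrays carry probe sets for many of them under the gene's own symbol. The 63 members had 219 probe sets in all. Probe set numbers on this array follow the order of genes, and 97.5% of other named probe sets stood among neighbours of their gene's chromosome. Of the 219 member probe sets 63 did so. The brightest probe set was on the gene's own chromosome for 30 members and among neighbours of another chromosome for 33. For Rpl7a, Rpl21, Rpl29, Rpl37a and Rps3a1 no probe set stood on the own chromosome. How much of a level came from the gene and how much from a copy cannot be told apart in these values.

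The choice of probe set changed little in the differences. For the 28 members whose brightest and own-chromosome probe sets were not the same, the sign was the same in 28, and the differences moved by a median of 0.014. The largest shift was that of Rpl23, at 0.22 with the brightest and 0.14 with the own-chromosome probe set. With own-chromosome probe sets the medians were 0.11 over 34 large-subunit and 0.04 over 24 small-subunit genes. Of the 39 members with more than 1 probe set, Rps4x alone had both signs, from -0.01 to 0.05. All 14 probe sets of Rps12 lay below 0, from -0.12 to -0.05, all 13 of Rpl23a above 0, from 0.14 to 0.19, and all 7 of Rpl19 from 0.23 to 0.29. Because probe sets of 1 gene can share transcripts and sequence, they are not replicates.

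**Figure D5:**
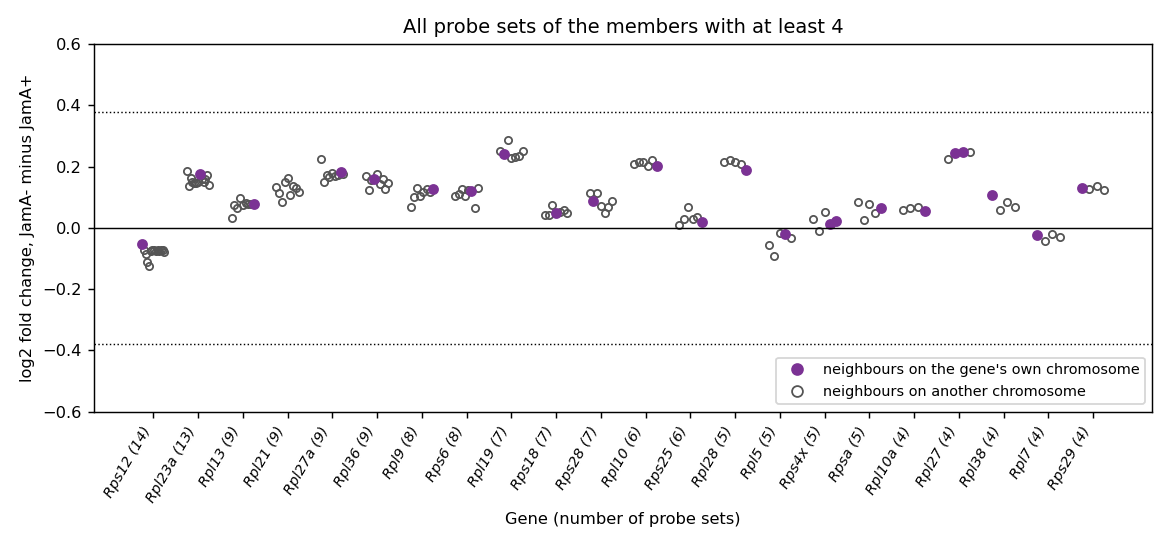
Log2 fold change (JamA- minus JamA+, deposited values) of every probe set of the members with at least 4, filled where the neighbouring probe sets are on the gene's own chromosome and open where they are on another, dotted lines at a 1.3-fold change. Probe sets of a gene cluster tightly, as the 14 of Rps12 between -0.12 and -0.05 and the 7 of Rpl19 between 0.23 and 0.29.

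Of 89 protein-coding symbols in RefSeq that fit the rule, 27 were not measured with a probe set of their own. Of these 27, 20 were in a probe set with several symbols. In all, 239 probe sets pair a symbol that fits the rule, whether or not it is a member's, with others. They had a median difference of 0.11, with 171 above 0, 0 meeting the criteria upward and 1 downward. No gene is named from them.

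The differences were also set against the letters at the start sites. The 14 members with a pyrimidine run of at least 8 at a start had a median of 0.065 with 9 above 0, and the 37 with shorter runs a median of 0.08 with 27 above 0. With CCGGAAG in a window the median was 0.08 over 19 members, and without it 0.07 over 32. After quantile normalization the medians of these groups lay between -0.09 and -0.11.

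Genes that build or serve the cytosolic ribosome included several that met the criteria in the deposited values, all upward. Of 35 ribosome assembly factors 34 were above 0, with a median of 0.25, and 4 met the criteria. Over all genes 71% were above 0 and 4.73% met the criteria upward, and the shares moved with the level: of genes outside the members with a mean log2 level between 8 and 10, 80.8% were above 0 and 434 of 5376 met the criteria upward, and between 10 and 12 it was 89.8% and 148 of 1192. Pes1, needed to mature the large-subunit rRNA, had log2 values of 9.81, 9.86 and 9.86 in JamA- tumors, against 9.19, 9.41 and 9.54 in JamA+ tumors, and was 0.46 higher without overlap (adjusted p = 0.323). Tsr1, a small-subunit assembly factor, was 0.43 higher, Utp4, a part of the small-subunit processome, 0.40 higher, and the rRNA methyltransferase Fbl 0.45 higher. In JamA- tumors Tsr1 was at 10.12, 10.13 and 10.12, so that it did not follow the order of the ribosomal proteins.

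Of 23 translation initiation factors 20 were above 0, with a median of 0.23, and 5 met the criteria upward. Over all genes it was 71% and 4.73%. The mean log2 level of the list was 10.48 to 11.03 in the 6 tumors. Of the 1192 other genes between 10 and 12, 89.8% were above 0, with a median of 0.23, and 148 met the criteria upward. Eif5a, which keeps ribosomes moving and is modified to hypusine, had 12.18, 12.34 and 12.43 in JamA- tumors, against 11.61, 11.95 and 11.95 in JamA+ tumors, and was 0.48 higher (adjusted p = 0.347). The subunits of initiation factor 3 Eif3l, Eif3d and Eif3c were 0.48, 0.42 and 0.40 higher. Of 11 elongation factors and other TOP mRNAs, whose translation is controlled like that of the ribosomal proteins, 9 were above 0 and 0 met the criteria by limma. Their count at an unadjusted limma p under 0.05 was also 0, beside 8.16% of all genes. Their median of 0.15 turned to -0.02 after quantile normalization. The ribosomal protein Fau, which lies outside the symbol rule, differed by 0.18.

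Of 77 mitochondrial ribosomal protein genes, which build the separate ribosome of the mitochondrion, 65 were above 0, with a median of 0.17, and 8 met the criteria upward. Over all genes it was the same 71% and 4.73%. The mean log2 level of the list was 8.41 to 8.87 in these tumors. Of the 5376 genes outside the cytosolic members between 8 and 10, 80.8% were above 0, with a median of 0.15, and 434 met the criteria upward. The list was not tested against these genes. Mrpl45 was 0.51, Mrpl38 0.47, Mrpl10 0.52 and Mrps23 0.43 higher. Their median deviation was 0.03, 0.02 and 0.22 in JamA- tumors 5333, 5346 and 5347, against -0.225, -0.05 and 0.03 in JamA+ tumors 5369, 5370 and 5393, so tumor 5333, lowest for the cytosolic members, was not low for them. The SD was larger among JamA- tumors in 38 of the 77, while it was so in 53 of the 63 cytosolic members and in 84 of the 96 other genes with a mean of at least 12. In those 96 genes the median SD was 0.292 in JamA- and 0.138 in JamA+ tumors, and the median correlation between 2 genes was 0.821.

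Among 21 regulators of Myc and mTOR 17 were above 0 (10 after quantile normalization) and 2 met the criteria upward. Over all genes 71% were above 0 (66.4% after quantile normalization) and 4.73% met the criteria upward. The mean log2 level of the regulators was 8.45 to 8.89 in the 6 tumors. Of the 5376 other genes between 8 and 10, 80.8% were above 0 and 434 met the criteria upward. Myc had 9.88, 9.98 and 9.94 in JamA- tumors, against 9.38, 9.61 and 9.37 in JamA+ tumors. The groups did not overlap, and Myc was 0.48 higher (SE 0.118, limma adjusted p = 0.29). Ddit4, an inhibitor of mTOR complex 1, had 9.8, 10.08 and 9.99 in JamA- tumors, against 8.59, 8.98 and 9.03 in JamA+ tumors, and was 1.09 higher (adjusted p = 0.198). Of 16 genes of RNA polymerase I and its factors 13 were above 0 with a median of 0.13 (0.02 and -0.01 under the quantile normalizations over all and over listed probe sets), and of 6 ribosomal S6 kinases 3, with a median of 0.01. In neither list did a gene meet the criteria by limma, and 1 and 0 had an unadjusted limma p under 0.05, beside 8.16% of all genes.

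These calls depended on the scaling of the arrays. After quantile normalization the calls were 0 of 35 assembly factors, 0 of 23 initiation factors, 1 of 77 mitochondrial ribosomal protein genes and, of the regulators, Ddit4 at 0.93, while Myc, at 0.30, was under the fold threshold. The medians of the first 3 lists were then 0.105, 0.04 and 0.05, with -0.02 for the TOP mRNAs, and -0.09 for the 63 cytosolic members. Without JamA+ tumor 5369 the calls were 0 of 35, 0 of 23 and 1 of 77, and without JamA- tumor 5333 they were 7, 8 and 9. The equal-variance test gave 3, 2 and 3, and centring each array on its median 8, 7 and 16. The share of all genes that met the criteria in either direction moved too, from 5.33% in the deposited values to 3.73% after quantile normalization. It was 3.1% without tumor 5369, 10.8% without tumor 5333, 2.78% with the equal-variance test and 8.46% with median centring. Neither the difference between these lists and the cytosolic members nor the part of array width in it was tested.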

How the data were processed

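For 35557 probe sets on 6 arrays, the authors deposited log2 expression produced by RMA (Affymetrix Expression Console 1.1, per the submitters' processing notes). For other settings of that step, nothing was given in the sources used here. Arrays give no read counts, so the number of tumors limits the precision. Columns of per-sample values left unused numbered 0, and no batch or scan date was given.

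Probe sets were named through the platform annotation (21789 with 1 symbol, 1621 with several, 12147 not listed), of which 21698 were matched to RefSeq of GRCm38.p6 for chromosomes and start sequences. Neighbours were the 6 named probe sets on each side by number.

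Differences (JamA- minus JamA+), standard errors and p-values came from lmFit and eBayes of limma 3.58.1 (R 4.3.3) at their defaults, without covariates, 3 tumors in each group, and with Benjamini-Hochberg adjustment over all probe sets. The criteria of a 1.3-fold change and an unadjusted p under 0.05 were read from the study's signature. The paper states no test for the arrays. As run here, with limma, the criteria called 2952 of 35557 probe sets, more than that signature holds. The smallest two-sided p of an exact permutation test is 0.1 with 3 against 3 tumors, so none was used. The fit was tested on simulated data. Alternatives were quantile normalization over all or over listed probe sets, median centring, a filter on the 40% dimmest probe sets, a trended robust prior, array weights, an equal-variance test, a 1.5-fold threshold, the mean of a gene's probe sets and leaving out each tumor. Own-chromosome probe sets and leaving out Rps19bp1 were added after seeing the data.

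Named members were those that met the criteria, the 4 highest and 4 lowest differences of each subunit, members of set roles, paralog pairs and those of the largest spread. Of companion lists the text names up to 4 genes that met the criteria, by smallest p. Promoter examples were picked by run length and by the results. The members and lists were chosen with earlier results of these data known.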

Additional observations from a re-analysis of the deposited data

How the results depend on the processing

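The count of large-subunit genes that met the criteria was 0, and 1, Rpl22 lower in JamA- tumors, under quantile normalization over all or over listed probe sets. The large-subunit median of 0.107 was then -0.082 and -0.08, and the small-subunit median of 0.07 was -0.11 and -0.137. The small-subunit count stayed at 1 there, but the gene was Rps3a1 (-0.45 and -0.46, lower in JamA- tumors) in place of Rps19bp1 (0.361 and 0.356). The small-subunit count was 0 with a 1.5-fold threshold and 0 without Rps19bp1. Leaving out 1 tumor at a time gave 0 to 2 large-subunit and 1 to 2 small-subunit genes, with 2 each without JamA- tumor 5333, and medians of -0.009 to 0.242 and of -0.053 to 0.223, the lowest without JamA- tumor 5347 and the highest without 5333. The cause of these shifts was not tested. Median centring, the filter on dim probe sets, the trended robust prior, array weights, the equal-variance test, the mean of all probe sets and own-chromosome probe sets kept the counts at 0 and 1, and Rps19bp1 was the gene in each. Its adjusted p ranged from 0.0984 with array weights to 0.631 without JamA+ tumor 5369. Of 33 named members 11 had the other sign under each quantile normalization, 7 without tumor 5347 and 5 without tumor 5333. No paired analysis was possible because the groups share no tumor number. No value is given for the medians at a 1.5-fold threshold, which they do not use.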

Other observations

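The 2 measured symbols marked as ribosomal protein pseudogenes were outside the rule. Rps19-ps3 had log2 values of 7.52, 7.67 and 7.67 in JamA- tumors, against 7.94, 7.79 and 7.92 in JamA+ tumors, without overlap, and differed by -0.26 (limma adjusted p = 0.459), short of the 1.3-fold threshold. Rpl14-ps1 differed by 0.06, with overlapping groups.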
